A study of Homo sapiens with 3 samples.

Results

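The genes examined here encode the 5 subunits of the transcription factor NF-kappaB and 5 proteins that restrain it or act beside its receptors. They were taken from the deposited table by matching Ensembl identifiers to the symbols NFKB1, NFKB2, REL, RELA, RELB, NFKBIA, NFKBIB, NFKBIE, TNFAIP3 and BIRC3, and all 10 were found among its 60504 genes. The symbols were named with the values of these same libraries known, and the difference between the BEX2-/- clones was among those values, so they count as chosen by their FPKM differences between these libraries. Every comparison of the 10 genes across the libraries is therefore given as a description and carries no test. RNA-Seq libraries were made from DLD1, an established colorectal cancer cell line of epithelial origin. There was 1 library of wild type DLD1 cells, called DLD1 control cells, and 1 library of each of 2 BEX2 knocked out lines, DLD1 KO1 and DLD1 KO2, called clone 1 and clone 2. BEX2, which encodes a brain expressed X-linked protein, was disrupted by CRISPR/Cas9, and the methods of the study state that clones were picked after sequencing. The labels name no treatment, and all 3 libraries otherwise share the same parent line. Levels are FPKM, that is, fragments per kilobase of the merged exons of a gene, scaled to the size of the library. The merged exons can be longer than the transcripts expressed. Comparisons between genes are therefore approximate, and the intervals given for them leave this out.

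NF-kappaB acts as a pair of subunits. In resting cells the pair is held in the cytoplasm by an IkB protein, a stimulus such as tumor necrosis factor leads the IKK kinase complex to mark the IkB protein for destruction, and the freed pair enters the nucleus. Among its targets are genes for its own subunits and inhibitors, so the mRNA of such feedback genes is widely used as a sign of the activity of the pathway. The 10 genes were placed in 3 groups from general knowledge. RELA and NFKBIB are mostly transcribed at a steady level and were called constitutive, NFKB1, NFKB2, REL and RELB were called inducible subunits, and NFKBIA, NFKBIE, TNFAIP3 and BIRC3 were called inducible inhibitors. BIRC3, a ubiquitin ligase of the receptor complex, is placed with the inhibitors because it restrains the noncanonical branch of the pathway.

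NF-kappaB can act on its feedback genes through sites in their promoters, so the promoter windows at hand are shown first. RefSeq windows on GRCh38.p14, from 250 bases before to 50 bases after a transcription start, were at hand for 8 of the 10 genes, 13 windows in all; RELB and NFKBIE were not among them. Both strands were searched for the NF-kappaB consensus of 10 bases, and matches that overlapped were counted as 1 site. Such a site lay in 5.91% of 35116 windows of all genes and in 7.09% of 27305 genes. Among the 10 genes, 7 of the 8 with a window had a site. It was found in neither window of RELA. At least 2 separate sites lay in 4 of the 13 windows, compared with 0.302% of all windows. The sites are printed 5′ to 3′ on the strand of the gene, with the matched bases in capitals.
NFKBIB (window 2 of 2, plus strand, chr19:38899931-38899960): gggcgtggtgGGGAATTTCCCgcagggcgg
NFKB1 (window 1 of 2, plus strand, chr4:102501300-102501329): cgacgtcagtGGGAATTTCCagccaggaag
NFKB2 (window 2 of 3, plus strand, chr10:102394461-102394490): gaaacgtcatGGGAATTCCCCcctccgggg
NFKB2 (window 2 of 3, plus strand, chr10:102394490-102394519): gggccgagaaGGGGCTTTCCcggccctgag
NFKB2 (window 3 of 3, plus strand, chr10:102395519-102395548): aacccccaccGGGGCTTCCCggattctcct
NFKB2 (window 3 of 3, plus strand, chr10:102395674-102395703): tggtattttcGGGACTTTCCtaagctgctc
REL (plus strand, chr2:60881517-60881546): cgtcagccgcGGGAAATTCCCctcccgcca
TNFAIP3 (plus strand, 2 sites, chr6:137867188-137867217): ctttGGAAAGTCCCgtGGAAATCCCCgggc
NFKBIA (minus strand, chr14:35404750-35404949): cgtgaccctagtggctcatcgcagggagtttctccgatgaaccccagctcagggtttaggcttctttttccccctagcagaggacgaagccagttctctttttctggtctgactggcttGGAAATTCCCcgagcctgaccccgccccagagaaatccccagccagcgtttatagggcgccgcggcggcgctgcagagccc
BIRC3 (plus strand, 2 sites, chr11:102317264-102317383): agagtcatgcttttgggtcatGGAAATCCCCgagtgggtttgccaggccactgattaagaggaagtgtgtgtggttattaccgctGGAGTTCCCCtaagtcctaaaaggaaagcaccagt

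The sites lay close to the start of transcription in most of these windows. Counted from the start, at which the base before it is -1, the site of NFKBIA ran from -81 to -72, that of NFKB1 from -49 to -40, that of REL from -47 to -37 and that of NFKBIB from -28 to -18. TNFAIP3 had a pair of sites from -67 to -58 and from -55 to -46. BIRC3 had its sites from -199 to -190 and from -135 to -126. In NFKB2 they ran from -107 to -97 and from -78 to -69 in window 2. In window 3 they ran from -176 to -167 and from -21 to -12. The matched bases of TNFAIP3 from -55 to -46 were the same as those of BIRC3 from -199 to -190, GGAAATCCCC. A match is a run of letters and not a measured binding site. The 10 genes include well known NF-kappaB targets, so the share with a site was not compared further with that of other genes.

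The samples gave the following background. The depth at which FPKM values become whole fragments was 47458848 in the control line, 35593990 in clone 1 and 47722385 in clone 2, and whole fragments were recovered in all 3 libraries for 9 of the 10 genes, that is, all but REL. Intervals given below are exact 95% intervals from these counts; they cover counting error only, treat PCR copies as separate molecules and say nothing of the spread between cultures. BEX2 (ENSG00000133134) was listed at 0 in all 3 libraries, where 3 fragments would be 0.0538 FPKM in the control line, so its mRNA gave no check of the labels. Epithelial markers summed to between 1600 and 1855 FPKM per library. All 7 leukocyte markers stayed under 1 FPKM in every library and summed to between 0.870 and 1.22 FPKM, with PTPRC at 0 throughout, the 5 fibroblast markers summed to between 0.129 and 0.634 FPKM, and the 4 endothelial markers to between 0.0649 and 0.0784 FPKM. Of the 7 epithelial markers, VIL1, CDX2 and EPCAM were highest in clone 1 and lowest in clone 2, and KRT8 and KRT18 were lowest in clone 1 and highest in clone 2. VIL1, which encodes villin of the intestinal brush border, was at 3.61 FPKM in the control line, 13.2 in clone 1 and 0.221 in clone 2. KRT18 was at 412, 312 and 455 FPKM. The part of these differences in the results was not tested. The knockout cannot be told apart from other differences between the control line and the clones, since the only control is 1 line. With 1 library of each line, the spread within a line is unknown as well. In bulk RNA, fewer cells that express a gene and less of its RNA per cell also cannot be told apart.

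In DLD1 control cells the inhibitor NFKBIA was the most abundant of the 10 mRNAs and REL the least abundant. The levels of the inducible genes lay below the control in clone 1 and above it in clone 2, by little for NFKB1 and REL in clone 1. NFKBIB was also below the control in clone 1, and RELA and NFKBIB stayed within 1.5-fold of the control in both clones. In FPKM, NFKB2, RELB and all 4 inducible inhibitors were at least 2-fold below the control in clone 1 and at least 1.5-fold above it in clone 2. The share of all genes past this pair of limits was not counted, so nothing further is read from it. REL followed the same order of libraries at a very low level.

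**Figure D1:**
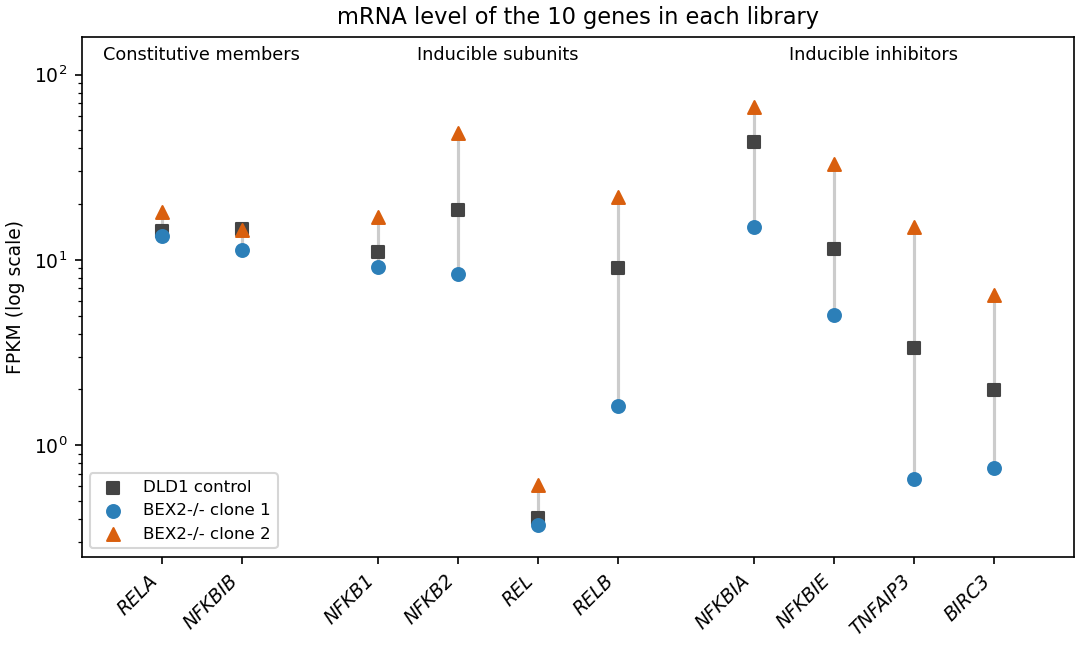
FPKM (log scale) of each of the 10 genes in DLD1 control cells (squares), BEX2-/- clone 1 (circles) and BEX2-/- clone 2 (triangles), 1 library each, with grey lines joining the lowest and highest library. RELA and NFKBIB hold their 3 libraries within 11.4 to 18.2 FPKM, whereas TNFAIP3 spans 0.656 to 15.0 FPKM with clone 1 lowest and clone 2 highest.

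RELA (ENSG00000173039) encodes the main activating subunit, p65, which carries the transactivation domain of the canonical pair. It stood at 14.4 FPKM in the control line, 13.4 in clone 1 and 18.2 in clone 2. Its level in clone 1 was 0.930 times that of the control (interval 0.885 to 0.978), and its level in clone 2 was 1.27 times (1.21 to 1.32). The libraries therefore differed beyond counting error but stayed within a narrow range. NFKBIB (ENSG00000104825), which encodes IkB-beta, an inhibitor that is degraded and replaced more slowly than IkB-alpha, was at 14.7 FPKM in the control line, 11.4 in clone 1 and 14.5 in clone 2. Clone 2 and the control were not distinguishable by counting error in NFKBIB (ratio 0.987, interval 0.921 to 1.06), and the sign of this small difference turned under TPM scaling. In clone 1 its level was 0.772 times that of the control (0.711 to 0.837).

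NFKB1 and NFKB2 encode precursors that are processed into the DNA-binding subunits p50 and p52, and their unprocessed forms also act as inhibitors. NFKB1 (ENSG00000109320) was at 11.0 FPKM in the control line, 9.13 in clone 1 and 17.0 in clone 2. Of the inducible genes above 1 FPKM it had the smallest range, with clone 2 at 1.87 times the level of clone 1 (interval 1.77 to 1.97). NFKB2 (ENSG00000077150) was at 18.5 FPKM in the control line, 8.39 in clone 1 and 48.4 in clone 2. The control was 2.21 times as high as clone 1 (2.07 to 2.35) and clone 2 was 2.61 times as high as the control (2.52 to 2.71). Clone 1 was thus below and clone 2 above the control for both precursors, by more for NFKB2.

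RELB encodes the partner of p52 in the noncanonical branch, in which the kinase MAP3K14 triggers processing of the NFKB2 precursor. RELB (ENSG00000104856) was at 9.03 FPKM in the control line, 1.63 in clone 1 and 21.8 in clone 2, which stand for 1301, 176 and 3162 fragments. The control exceeded clone 1 by 5.54-fold (interval 4.73 to 6.53), an interval that overlaps that of TNFAIP3 in the same comparison. Clone 2 exceeded the control by 2.42-fold (2.27 to 2.58). REL (ENSG00000162924), a subunit best known from lymphocytes, was at 0.403 FPKM in the control line, 0.369 in clone 1 and 0.609 in clone 2. It was the only one of the 10 genes under 1 FPKM in every library, did not pass the filter on low values and is left out of the counts below.

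NFKBIA encodes IkB-alpha, the classical feedback inhibitor, which is resynthesized after NF-kappaB enters the nucleus and carries it back out. NFKBIA (ENSG00000100906) was at 43.4 FPKM in the control line, 15.1 in clone 1 and 66.7 in clone 2. The control was 2.87 times as high as clone 1 (interval 2.70 to 3.06) and clone 2 was 1.54 times as high as the control (1.48 to 1.59). The gap was thus wider on the side of clone 1. NFKBIE (ENSG00000146232), which encodes IkB-epsilon, was at 11.4 FPKM in the control line, 5.05 in clone 1 and 32.9 in clone 2. Here the control was 2.26 times as high as clone 1 (2.03 to 2.51), and clone 2 was 2.88 times as high as the control (2.71 to 3.06).

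TNFAIP3 encodes A20, a ubiquitin-editing enzyme that shuts off signaling upstream of IKK. It had the widest range of the 10 genes. TNFAIP3 (ENSG00000118503) was at 3.35 FPKM in the control line, 0.656 in clone 1 and 15.0 in clone 2, from 802, 118 and 3616 fragments. The control was 5.10 times as high as clone 1 (interval 4.20 to 6.24), clone 2 was 4.48 times as high as the control (4.15 to 4.85), and clone 2 exceeded clone 1 by 22.9-fold (19.0 to 27.7). BIRC3 (ENSG00000023445), which encodes cIAP2, was at 1.99 FPKM in the control line, 0.751 in clone 1 and 6.42 in clone 2. The control was 2.65 times as high as clone 1 (2.26 to 3.11) and clone 2 was 3.23 times as high as the control (2.97 to 3.52). BIRC2, the close relative of BIRC3 that encodes cIAP1, did not share this order, with 5.87 FPKM in the control line, 8.20 in clone 1 and 8.30 in clone 2. The ratio of BIRC3 to BIRC2 was 0.339 in the control line, 0.0917 in clone 1 and 0.773 in clone 2.

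For counts across genes, ratios were taken of FPKM + 1, which understates the change of low genes, and genes had to reach 1 FPKM when the control and the average of both clones were averaged. This left 11675 genes, 9 of the 10 among them. In clone 1, 5 of the 9 (NFKB2, RELB, NFKBIA, NFKBIE and TNFAIP3) were lower by at least 2-fold, against 0.959% of all genes, and none was higher by as much, against 1.06%. In clone 2, 5 of the 9 (NFKB2, RELB, NFKBIE, TNFAIP3 and BIRC3) were at least 2-fold higher, against 1.33% of all genes, and none was at least 2-fold lower, against 0.737%. Relative to clone 1, 6 of the 9 were at least 2-fold higher in clone 2, against 2.51% of all genes, and none was lower, against 1.68%. The 4 genes NFKB2, RELB, NFKBIE and TNFAIP3 passed 2-fold downward in clone 1 and upward in clone 2, which 0.197% of all genes did, 23 in number. The order of FPKM was clone 1, control, clone 2 for 8 of the 9, all but NFKBIB, and for 16.1% of all genes. Because the genes were named with these differences known, and the comparisons with the control share its single library, nothing further is read from these counts.

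**Figure D2:**
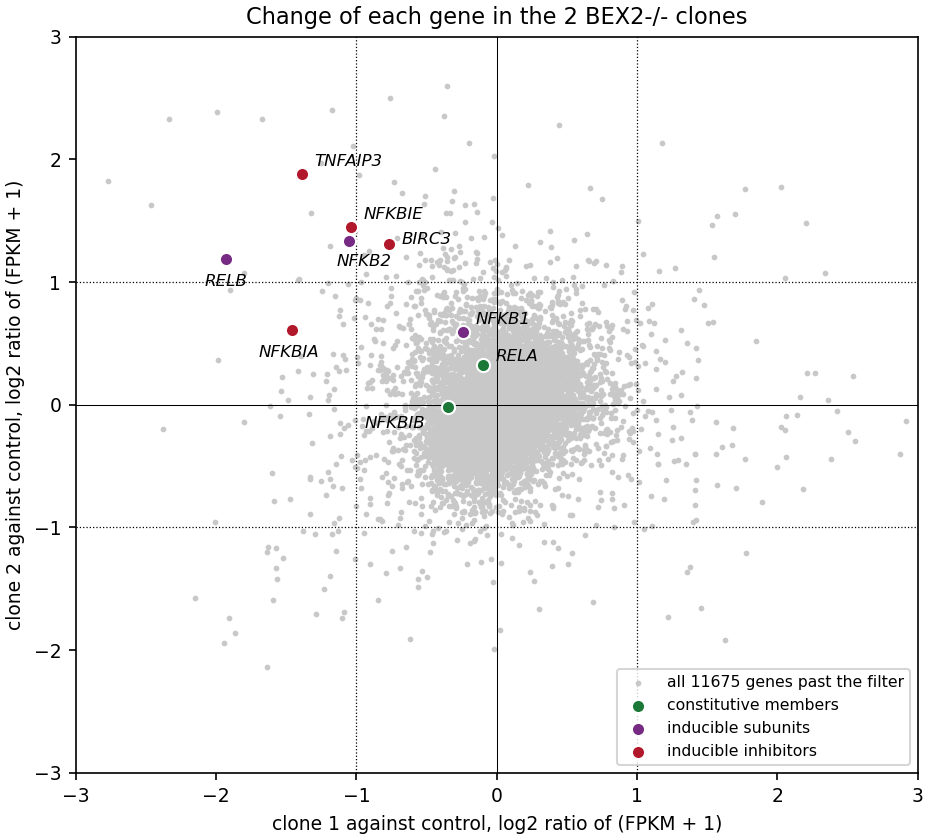
Log2 ratio of FPKM + 1 of clone 1 (horizontal) and clone 2 (vertical) to DLD1 control cells for 11675 genes (grey; 15 lie outside the axes) and the 9 genes past the filter (colored by group), with dotted lines at 2-fold. NFKB2, RELB, NFKBIE and TNFAIP3 lie past 2-fold on both axes in the upper left, and RELA and NFKBIB lie near the center.

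The 3 groups of genes were next described by their medians. The median log2 ratio of the 4 inducible inhibitors relative to DLD1 control cells was -1.21 in clone 1 and 1.38 in clone 2, and it was 2.28 for clone 2 relative to clone 1. That of the 3 inducible subunits past the filter was -1.06, 1.19 and 2.39 in the same comparisons. With REL included, the median of the 4 inducible subunits was -0.65, 0.89 and 1.61. The 2 constitutive genes had medians of -0.22, 0.15 and 0.37. Over all 11675 genes the medians were 0.04, -0.01 and -0.05. Between clone 2 and clone 1 the lowest inducible inhibitor was at 2.07 and the highest constitutive gene at 0.42, and NFKB1, at 0.83, lay between them.

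As BEX2 knockout against control, the question for which the libraries were made, the values of the clones lay on both sides of the control and left a mean with a wide SD. The clones had a mean of 28.4 ± 28.3 FPKM (SD, n = 2) for NFKB2, against 18.5 in DLD1 control cells, and of 7.83 ± 10.1 FPKM (SD, n = 2) for TNFAIP3, against 3.35. The mean for NFKBIA was 40.9 ± 36.5 FPKM (SD, n = 2), against 43.4. In all 10 genes the control lay within 1 SD of the mean of the clones. With n = 2, any control value between those of the clones lies within 1 SD by arithmetic. The genes were also named with the clone values known, so nothing is read from this count. The limma test of the clones against the control, with Benjamini-Hochberg adjustment, called 0% of 11675 genes higher and 0% lower, and 1.27% (148 genes) had an unadjusted p-value under 0.05. For the 10 genes nothing is read from this test, since they were chosen with the opposite values of the clones known. The test has 1 residual degree of freedom per gene and takes the single control library to vary as the clones do.

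The order of the mRNAs within a library also differed between the libraries. In clone 1, NFKBIA (15.1 FPKM) was followed by the constitutive genes RELA (13.4) and NFKBIB (11.4), then NFKB1, NFKB2 and NFKBIE. In clone 2, NFKBIA (66.7 FPKM) was followed by NFKB2 (48.4), NFKBIE (32.9) and RELB (21.8), and all of these exceeded RELA (18.2). In DLD1 control cells the order ran from NFKBIA through NFKB2, NFKBIB, RELA, NFKBIE, NFKB1, RELB, TNFAIP3 and BIRC3 to REL. Neighbours that could not be told apart by counting error were NFKBIB and RELA, and NFKBIE and NFKB1, in the control, BIRC3 and TNFAIP3 in clone 1, and TNFAIP3 and NFKBIB in clone 2. The ratio of REL to its neighbour in the order has no interval.

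The subunit mRNAs summed to 53.3 FPKM in the control line, 32.9 in clone 1 and 106 in clone 2. RELA made up 27.0% of this sum in the control line, 40.7% in clone 1 and 17.2% in clone 2. RELB made up 16.9%, 4.95% and 20.6%, and NFKB2 34.7%, 25.5% and 45.6%. The noncanonical subunits RELB and NFKB2 thus held a smaller share in clone 1 and a larger share in clone 2 than in the control. The ratio of RELB to RELA was 0.629 in the control line (interval 0.590 to 0.670), 0.122 in clone 1 (0.104 to 0.142) and 1.20 in clone 2 (1.15 to 1.26). The ratio of NFKB2 to NFKB1 was 1.69 in the control line (1.61 to 1.77), 0.919 in clone 1 (0.857 to 0.985) and 2.84 in clone 2 (2.74 to 2.93). The shares are of mRNA per length of merged exons, and protein was not measured here.

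**Figure D3:**
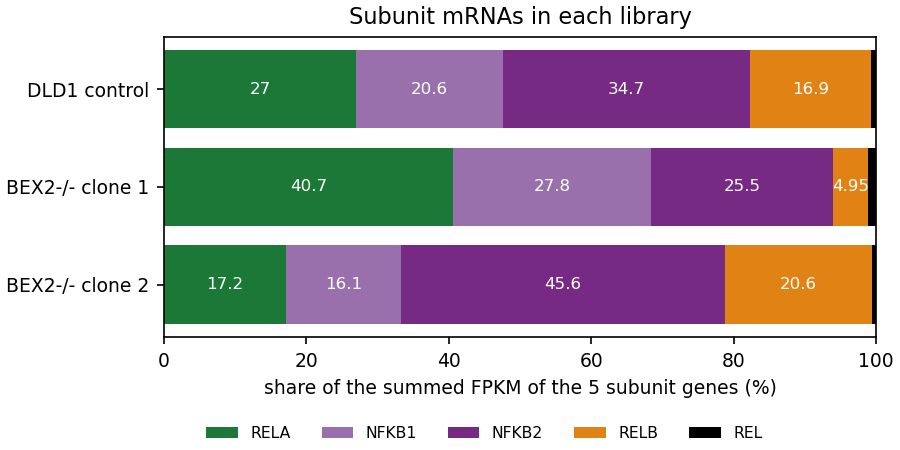
Share of the summed FPKM of the 5 subunit genes held by each (percent, bars from 0 to 100) in DLD1 control cells and the BEX2-/- clones, 1 library each. RELA holds 40.7% in clone 1 and 17.2% in clone 2, and RELB 4.95% and 20.6%.

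The ratio of NFKBIA to the subunit mRNAs depended on the subunit. NFKBIA was 3.02 times as abundant as RELA in the control line (interval 2.89 to 3.15), 1.13 times in clone 1 (1.06 to 1.21) and 3.66 times in clone 2 (3.53 to 3.80). Relative to NFKB1 it stood at 3.95 in the control line (3.78 to 4.13), 1.66 in clone 1 (1.54 to 1.78) and 3.91 in clone 2 (3.77 to 4.05). Relative to NFKB2 it was highest in the control line, at 2.34 (2.25 to 2.44), with 1.80 in clone 1 (1.67 to 1.95) and 1.38 in clone 2 (1.34 to 1.42). Relative to RELB it was highest in clone 1, at 9.28 (7.92 to 10.9), with 4.81 in the control line (4.52 to 5.11) and 3.05 in clone 2 (2.93 to 3.18). NFKBIA was thus lowest in clone 1 only against RELA and NFKB1 among these 4 subunits. Relative to NFKBIB, NFKBIE stood at 0.775 in the control line (0.721 to 0.833), 0.444 in clone 1 (0.397 to 0.497) and 2.26 in clone 2 (2.13 to 2.40). TNFAIP3 stood at 0.233 of RELA in the control line (0.215 to 0.251), 0.0491 in clone 1 (0.0405 to 0.0591) and 0.824 in clone 2 (0.789 to 0.861). These ratios compare genes within a library and so do not depend on the scaling between libraries.

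The rest of the pathway was examined in further lists, again in ratios of FPKM + 1. None of their genes passed limma's adjusted threshold for the knockout. Of all genes past the filter, 1.06% were at least 2-fold higher and 0.959% lower in clone 1 than in the control. For clone 2 against the control these shares were 1.33% and 0.737%. For clone 2 against clone 1 they were 2.51% and 1.68%. The lists were chosen with results of these data known, so nothing further is read from their counts. The 3 genes of the IKK complex, CHUK, IKBKB and IKBKG, which carry the signal to the IkB proteins, stayed within 2-fold in all comparisons. CHUK was at 4.32 FPKM in the control line, 5.91 in clone 1 and 4.85 in clone 2. IKBKG, the regulatory subunit, was at 1.83, 2.44 and 1.94 FPKM in that order of libraries, and IKBKB at 3.97, 4.72 and 4.80 FPKM. Between the clones their median log2 ratio was -0.23.

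Among 21 upstream adaptors and kinases, none was at least 2-fold from the control in clone 1 and 1 was higher in clone 2. The latter, MAP3K8, passed the filter only with the help of clone 2. Between the clones 3 were at least 2-fold higher in clone 2, and the median was 0.13. MAP3K8, a kinase bound by the NFKB1 precursor, was at 1.27 FPKM in the control line, 0.648 in clone 1 and 3.96 in clone 2. IKBKE, an IKK-related kinase, was at 3.87, 2.35 and 7.90 FPKM. TRAF3, which holds the noncanonical branch in check, was at 5.54, 3.36 and 10.4 FPKM, and MALT1 at 2.93, 2.68 and 4.79 FPKM. MAP3K8, IKBKE, TRAF3 and MALT1 were lowest in clone 1 and highest in clone 2. This order of libraries held for 9 of the 21, against 16.1% of all genes.

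Of 18 receptor genes, 8 passed the filter and 3 (CD40, TLR4 and TLR9) were listed at 0 in every library. Of the 8 past the filter, none was at least 2-fold from the control in either clone, and 1 was at least 2-fold higher in clone 2 than in clone 1. That gene, TNFRSF12A, the receptor of the ligand TWEAK, was at 43.7 FPKM in the control line, 24.6 in clone 1 and 53.8 in clone 2. TLR2 was at 2.89, 2.34 and 4.25 FPKM, TNFRSF1B at 3.19, 2.34 and 3.78 FPKM, and TLR3 at 1.39, 1.89 and 2.10 FPKM. The median of the 8 between the clones was 0.18.

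Ligand mRNAs were mostly low. Of 13, 5 passed the filter, and IL1B and CD40LG were listed at 0 in every library. LTB, which encodes lymphotoxin beta, a ligand of the noncanonical branch, was at 0.755 FPKM in the control line, 0.0366 in clone 1 and 8.94 in clone 2, from 55, 2 and 655 fragments. Its ratio of clone 2 to clone 1 was 244, with a counting interval from 67.4 to 2021. LTB passed the filter only through clone 2. IL17C, an epithelial cytokine, was the 1 ligand past the filter that was at least 2-fold below the control in clone 1 by FPKM + 1, at 2.09, 0.448 and 3.89 FPKM. IL33 ran the other way in clone 1, with 2.71 FPKM in the control line, 9.02 in clone 1 and 3.79 in clone 2, and IL18 was at 15.9, 18.9 and 22.3 FPKM. TNF itself, picked out after its values were seen, had 11 fragments in the control line, 0 in clone 1 and 67 in clone 2, under 1 FPKM in every library.

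Of 16 genes for ubiquitin editing and other feedback, 15 passed the filter and TNIP3 was listed at 0 throughout. None was at least 2-fold from the control in clone 1, and 3 were at least 2-fold higher in clone 2. ZC3H12A, an endonuclease that degrades inflammatory mRNAs, was at 10.5 FPKM in the control line, 6.17 in clone 1 and 36.8 in clone 2. TNIP1, a partner of A20, was at 19.7, 16.2 and 44.1 FPKM, TRAF1 at 1.91, 1.27 and 5.55 FPKM, and CYLD at 1.22, 0.868 and 1.82 FPKM. The median of the list between the clones was 0.14.

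Of 5 atypical and other IkB genes, all passed the filter and 1 was at least 2-fold higher in clone 2 than in the control. That gene, NFKBIZ, which encodes the nuclear IkB-zeta, was at 4.68 FPKM in the control line, 4.34 in clone 1 and 13.7 in clone 2. BCL3, a nuclear partner of p50 and p52, was at 5.27, 3.64 and 6.59 FPKM. NFKBIL1 was lower in both clones, at 6.81, 5.09 and 4.70 FPKM, and IKBIP was at 3.33, 2.37 and 2.38 FPKM. The classical inhibitors NFKBIA and NFKBIE were thus not matched by all genes of the wider IkB family.

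Of 18 other NF-kappaB target genes, 14 passed the filter, and BCL2A1, MMP9 and VCAM1 were listed at 0 in every library. In clone 1, 4 of the 14 were at least 2-fold lower, against 0.959% of all genes, and none higher. In clone 2, 3 were at least 2-fold higher, against 1.33% of all genes, and none lower. PTGS2 is 1 of these 3 and passed the filter only through clone 2. The order clone 1, control, clone 2 held for 10 of the 14, against 16.1% of all genes. PTGS2 and PLAU are among these 10, and both passed the filter only with the help of clone 2. This favors the order counted. The order did not hold for GADD45B, BCL2L1, CD44 and TNFAIP8. CD44 was at 8.44 FPKM in the control line, 11.9 in clone 1 and 11.9 in clone 2. SDC4, a heparan sulfate proteoglycan of the cell surface, was at 50.1 FPKM in the control line, 15.0 in clone 1 and 255 in clone 2. IER3 was at 57.1, 27.8 and 154 FPKM, CD83 at 6.22, 1.63 and 10.2 FPKM, and PTGS2, which encodes cyclooxygenase, at 0.576, 0.555 and 5.42 FPKM. The median of the list between the clones was 0.91. For 9 genes of nuclear partners of RELA past the filter it was 0.04, and none of these was at least 2-fold apart in any comparison. The order clone 1, control, clone 2 nevertheless held for 3 of these 9. Among genes past the filter it held for 0 of 3 IKK genes, 3 of 8 receptors and 3 of 5 ligands. It also held for 3 of 5 atypical and other IkB genes and for 7 of 15 genes for ubiquitin editing and other feedback. HDAC1, a corepressor, was at 44.1, 51.7 and 36.6 FPKM, RPS3 at 315, 249 and 323 FPKM, NCOA3 at 2.67, 3.66 and 4.03 FPKM, and CREBBP at 2.83, 2.59 and 3.68 FPKM.

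**Figure D4:**
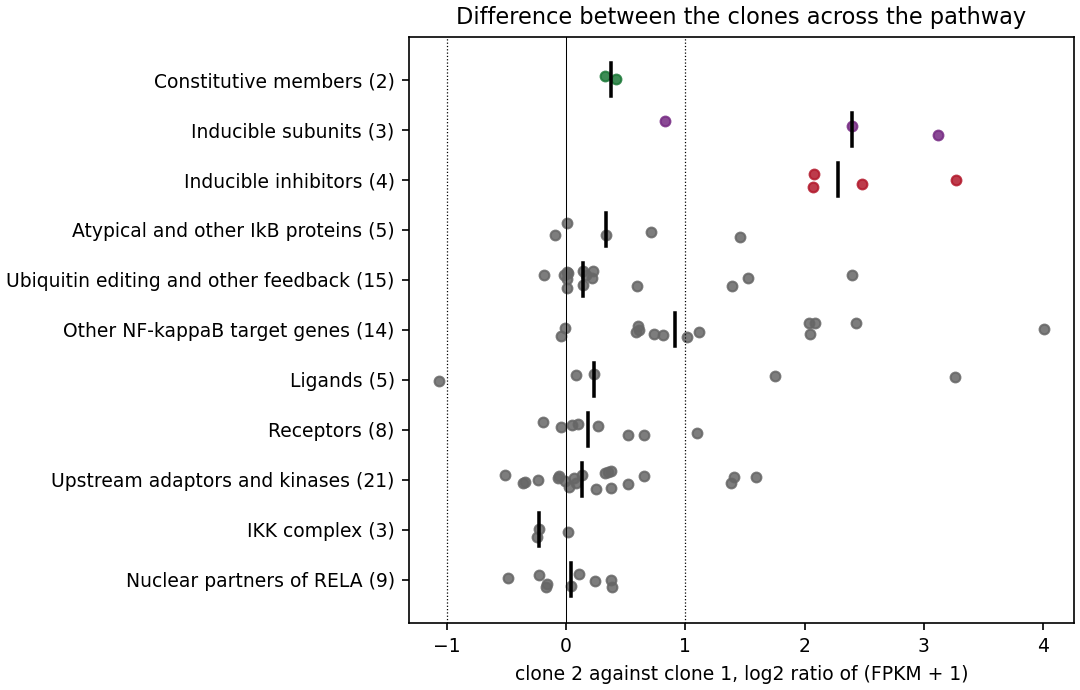
Log2 ratio of FPKM + 1 of clone 2 to clone 1 for each gene past the filter in 3 groups of the 10 genes and 8 further pathway lists (number of genes in parentheses), with a black bar at the median of each list and dotted lines at 2-fold. The inducible inhibitors lie at 2.07 or above, the IKK genes near 0 (median -0.23), and the other target genes spread from about 0 to SDC4 at the far right.

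The genes whose pattern was most like the inducible inhibitors were sought among 5987 other protein-coding genes that averaged 5 FPKM or more, by the distance from the median of the 4 inhibitors in the plane of both log2 ratios to the control. With 3 libraries this likeness rests on a pair of ratios per gene. The nearest were IER3 (distance 0.205), the autophagy gene GABARAPL1 (0.331), the metallothionein gene MT2A (0.392), DUSP6 (0.406), a phosphatase of the ERK kinases, FOXQ1 (0.411), CDC42EP2 (0.421), CYR61 (0.455) and ICAM1 (0.494). GABARAPL1 was at 15.7 FPKM in the control line, 7.91 in clone 1 and 38.8 in clone 2, and MT2A at 79.6, 34.0 and 159 FPKM. IER3 and ICAM1 are also on the list of other NF-kappaB target genes. That list was chosen with results of these data known, and the search started from the ratios of the inhibitors themselves. Nothing is therefore read from this overlap.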

How the data were processed

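TRIzol-extracted total RNA was prepared with the TruSeq RNA kit of Illumina and sequenced. The authors deposited 1 table of FPKM values per gene. The submitters' processing notes list Trim Galore 0.3.7, STAR 2.5, Cufflinks 2.2.1, DESeq 1.22.1 and the build hg19, without their roles. Symbols and merged exon lengths came from GENCODE release 29, which holds 56996 of 60504 identifiers. Multiplied by these lengths, low values came out whole within 0.02 for 98.7% to 98.9% of genes with 1 transcript and for 88.8% to 89.7% of the remaining genes, which gave the depths. Promoter coordinates are from RefSeq on GRCh38.p14 and are not those of the authors' alignment.

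Each clone was compared with the control in log2(FPKM + 1), and the mean of the clones was tested with limma 3.58.1 in R 4.3.3. DESeq needs counts and was not run. The fold count and limma were also run on simulated libraries in which both clones changed alike. Many genes here differ in opposite directions between the clones, so the simulation does not show how the methods perform on these data. The genes, groups and lists were chosen with earlier results of these data known. Of each list, the 4 genes with the largest ratio between libraries and a mean of at least 1 FPKM were named, with up to 3 genes at 0. BIRC2, CD44, TNF, GADD45B, BCL2L1, TNFAIP8 and PLAU were named outside this rule, with their values known. Lists were written from general knowledge. Scripts ran in Python 3.11.15 with scipy 1.17.1, pandas 2.3.3, matplotlib 3.10.9 and numpy 2.4.6. The labels do not say whether the libraries came from separate cultures, and 1 library per line gives no replicate error. Alternatives were a pseudocount of 0.1 FPKM, no filter, a mean of at least 5 FPKM, median and TPM scaling, ratios without a pseudocount with a floor of 3 fragments, a threshold of 1.5-fold and leaving out clone 1 or clone 2.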

Additional observations from a re-analysis of the deposited data

How the results depend on the processing

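Of 159 log2 ratios of single genes recomputed under the alternatives with both clones, 158 kept their sign, and NFKBIB in clone 2 against the control turned to 0.05 under TPM scaling. A changed filter or pseudocount cannot turn the sign of a ratio, and none of these genes reached the floor. Only median and TPM scaling could have turned a sign, so most of the 158 were fixed in advance. The counts among the 9 genes stayed within 1.5 times under all alternatives, and limma called no gene under the other pseudocounts, filters and scalings. The numbers of all genes past 2-fold (clone 1 and clone 2 against the control, clone 2 against clone 1) moved to 456, 507 and 863 with a pseudocount of 0.1 FPKM, to 83, 100 and 222 with a mean of at least 5 FPKM, to 400, 471 and 763 with TPM scaling, and to 469, 526 and 893 without a pseudocount; a 1.5-fold threshold gave 730, 973 and 1444. Some medians of groups also moved, with their sign kept. For the inducible inhibitors, clone 2 against the control gave 1.58 at the lower pseudocount, 1.60 under TPM scaling and 1.61 without a pseudocount, and clone 2 against clone 1 gave 2.81, 2.69 and 2.90, and 2.48 with a mean of at least 5 FPKM; clone 1 against the control gave -1.46 without a pseudocount. For the inducible subunits, no filter, which adds REL, gave -0.65, 0.89 and 1.61, and clone 2 against the control gave 1.32 with TPM scaling and 1.27 without a pseudocount. As the mean of the clones against the control, the median was 0.23 for the inducible inhibitors, 0.14 for the inducible subunits and -0.04 for the constitutive genes; leaving out each clone in turn gave -1.21 to 1.38, -1.06 to 1.19 and -0.22 to 0.15, with no residual degrees of freedom for a test, so the direction is that of the clone kept. No paired analysis was possible because there is a single control library, whose label carries no number. Few fragments stand behind TNF and LTB, and REL gave no whole fragments.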
